A study of Homo sapiens with 94 samples.

Results

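TEAD1, TEAD2, TEAD3 and TEAD4 are the 4 human TEAD transcription factors. They were taken by name from the 20239 genes of an RNA-seq series on tumors of NCI-H226, an established human pleural mesothelioma line with a deletion of NF2. Each of the 4 genes had a single entry in the table and passed the filter on low values, which asked for 1 FPKM or more in 4 or more libraries and kept 13036 genes. FPKM counts the fragments of a gene per length of its transcript and per total of mapped fragments.

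TEAD proteins bind DNA but activate transcription poorly on their own. They recruit the co-activators YAP1 and WWTR1 (TAZ), which the kinases of the Hippo pathway keep out of the nucleus, and loss of NF2 weakens that restraint. All 4 carry a pocket for palmitate, and K-975 is a covalent inhibitor that occupies this pocket at a cysteine.

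Female SCID mice (CB17/lcr-Prkdcscid/lcrIcoCrl) with subcutaneous NCI-H226 tumors were left untreated or received a single oral dose of vehicle or of K-975 at 30, 100 or 200 mg/kg. Vehicle was a mixture of ethanol, Solutol and acidified glucose. The dosing volume was 20 mL/kg for vehicle and for the highest dose and 10 mL/kg for the lower doses. Comparisons of 30 or 100 mg/kg with vehicle or with 200 mg/kg, and slopes over the doses, cannot tell dose from dosing volume. All tumors carried the same NF2 deletion, and all came from 1 cell line. Tumors were collected in 3 studies, 1 h, 3-6 h or 24 h after dosing, and each study had its own 5 untreated tumors. At 1 h and 24 h each treatment had 5 tumors, apart from 4 for vehicle at 24 h, and made up a single cage group, so treatment and cage cannot be told apart there. The 3-6 h study had 10 tumors per treatment, 5 from each of 2 cage groups. Its labels give the time only as 3-6 h and do not say when each cage group was sampled. The time of vehicle and K-975 tumors was read from the study code that they share with the untreated tumors.

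Of the 94 libraries, 91 had between 11344 and 11665 genes at an FPKM of at least 1. The other 3 had far fewer and stood apart: replicate 1 of 200 mg/kg at 1 h with 8531 genes, replicate 5 of 100 mg/kg at 24 h with 7196 and replicate 1 of 30 mg/kg at 24 h with 702. In the last, all 4 TEAD genes were listed at 0 FPKM. Values below are from the 91 libraries unless stated. Each call made in them, apart from those on markers in untreated tumors, is also given with all 94. Of the 12 mesothelial markers only UPK3B was listed at 0 in any library, in 3 of 91, and the medians of MSLN and CALB2 were 254.8 and 612.2 FPKM. Among markers of other human cells, the lymphocyte genes CD3E and MS4A1 were listed at 0 in 90 and 91 of 91 libraries and the endothelial gene PECAM1 in 79. On the same lists the monocyte and lysosome gene CD68 had a median of 138.6 FPKM, the VEGF receptor gene KDR 63.9 FPKM and the PDGF receptor gene PDGFRB 32.0 FPKM, and none of these 3 was at 0 in any library. VWF, CDH5, CD14, KRT10 and FLG were likewise never at 0, at lower medians of 0.13 to 3.31 FPKM. The tumor cells are human and the host tissue is of the mouse, and how mouse reads were handled is not given. Whether reads of these markers of other cells came from the tumor cells or from mouse tissue was not tested. In bulk tumors, fewer cells of a type and less RNA per cell cannot be told apart.

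The genes lie on different chromosomes of GRCh38 (GENCODE 29). TEAD1 (ENSG00000187079) spans chr11:12674591-12944483 on the plus strand, TEAD2 (ENSG00000074219) chr19:49340595-49362457 on the minus strand, TEAD3 (ENSG00000007866) chr6:35473597-35497076 on the minus strand and TEAD4 (ENSG00000197905) chr12:2959330-3040673 on the plus strand. The codon of the pocket cysteine, where K-975 attaches to the protein, lies in the last but 1 exon of the principal transcript of each gene: exon 11 of 12 in TEAD1 and TEAD2, and exon 12 of 13 in TEAD3 and TEAD4. The 39 coding bases around it are shown to let the 4 transcripts be compared at the site of the drug. They lie at chr11:12930225-12930263 for TEAD1, chr19:49342501-49342539 for TEAD2, chr6:35475399-35475437 for TEAD3 and chr12:3040158-3040196 for TEAD4, each within 1 exon, and are written 5′ to 3′ on the strand of the gene with the cysteine codon in capitals.
TEAD1: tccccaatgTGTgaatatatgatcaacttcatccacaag
TEAD2: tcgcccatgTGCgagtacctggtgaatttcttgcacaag
TEAD3: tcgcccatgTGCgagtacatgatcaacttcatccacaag
TEAD4: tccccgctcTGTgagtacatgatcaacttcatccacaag
The cysteine codon was TGT in TEAD1 and TEAD4 and TGC in TEAD2 and TEAD3. Between pairs of genes the 39 bases differed at 5 positions for TEAD1 against TEAD3, TEAD1 against TEAD4 and TEAD3 against TEAD4, at 6 for TEAD2 against TEAD3, and at 11 for TEAD2 against TEAD1 and against TEAD4.

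Over whole transcripts the family shared little sequence of the kind that would confuse reads. Of the 50-base windows of the principal transcript, 0 of 3026 in TEAD1 and 0 of 2115 in TEAD2 occurred in a transcript of another TEAD gene. In TEAD3 and TEAD4 this held for 7 of 2934 and 7 of 1641 windows. Only exact matches were counted, and mouse transcripts of the host were not compared, so how often reads could be confused was not tested. On the opposite strand, TEAD2 overlaps the protein-coding genes CD37 by 2741 bases and DKKL1 by 675 bases, and both TEAD1 and TEAD2 overlap short non-coding genes. On its own strand TEAD1 overlaps the sense-intronic gene AC013549.3 by 639 bases, which strand would not separate. TEAD3 and TEAD4 overlap no annotated gene. Whether strand was used in the counting is not given in the sources used here, and without it reads from a gene and a partner on the opposite strand cannot be told apart.

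TEAD1, a member expressed widely in adult tissues, had the highest level. It ranged from 87.5 to 171 FPKM over the 91 libraries, with a median of 126.4, above the medians of 96.8% of all genes. TEAD4 followed with 25.2 to 52.3 FPKM and a median of 40.6. TEAD3 ranged from 7.56 to 16.2 FPKM with a median of 12.4. TEAD2 had the lowest median, 8.11 FPKM, and the widest spread for its level, from 4.29 to 23.5 FPKM. Its coefficient of variation over the libraries was 32.7%, against 13.7% for TEAD1, 14.8% for TEAD3 and 17.2% for TEAD4.

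The order of the levels was fixed at the top and loose at the bottom. TEAD1 exceeded TEAD4 in 91 of 91 libraries, and the lowest TEAD1 value, 87.5 FPKM, was above the highest TEAD4 value, 52.3 FPKM. TEAD4 likewise exceeded TEAD3 in 91 of 91, with a lowest TEAD4 value of 25.2 FPKM against a highest TEAD3 value of 16.2 FPKM. TEAD3 exceeded TEAD2 in 77 of 91 libraries only, and their ranges overlapped. Because libraries were enriched with capture probes, levels of different genes also depend on how well their probes capture them.

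**Figure D1:**
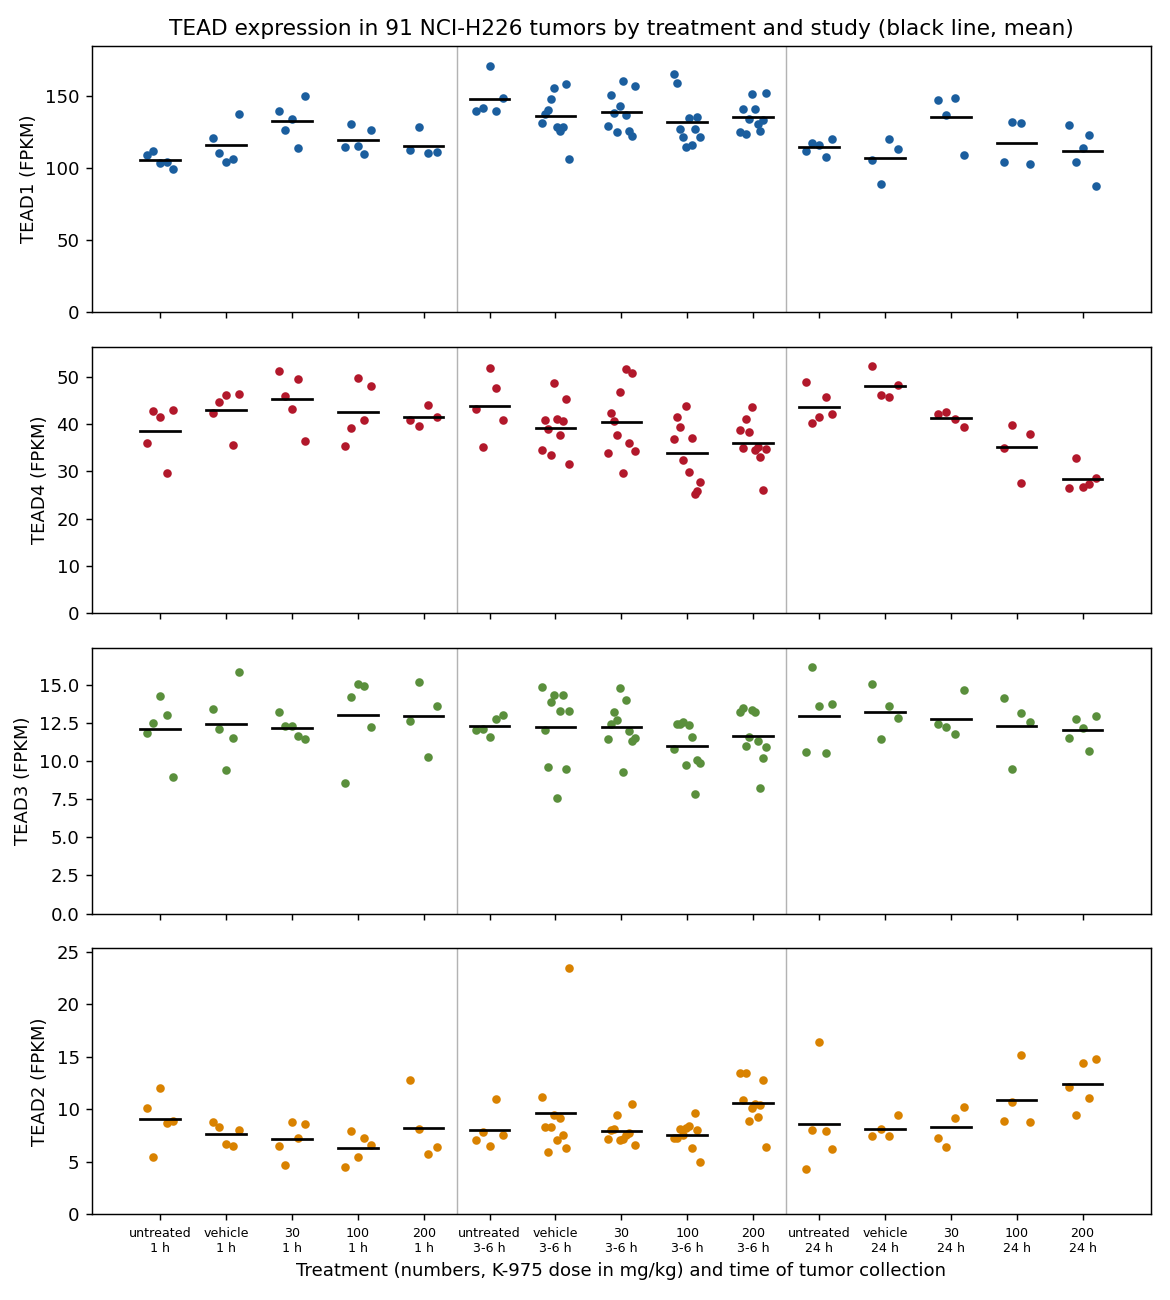
TEAD expression (FPKM, y axis starting at 0) in each of the 91 tumors, by treatment and time of collection (x axis); points are tumors and black lines are means. TEAD1 has a median of 135 FPKM in the 3-6 h study against 113 and 115 FPKM at 1 h and 24 h, TEAD4 steps down with dose at 24 h from a mean of 48.2 FPKM with vehicle to 28.4 FPKM at 200 mg/kg, and the TEAD3 groups overlap throughout.

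To ask whether a TEAD inhibitor changes the expression of the TEAD genes themselves, each dose was set against vehicle within its study. This gave 36 log2 fold changes, 4 genes at 3 doses in 3 studies, from limma on log2(FPKM + 1) with Benjamini-Hochberg adjustment over the 13036 genes of each comparison. Only TEAD4 at 200 mg/kg and 24 h passed an adjusted p of 0.05, and 6 of the 36 had an unadjusted p under 0.05. The doses of a study share their vehicle tumors, so their values are not independent.

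TEAD4 fell at 24 h. The 4 vehicle tumors had 52.3, 46.2, 45.8 and 48.4 FPKM. The 5 tumors given 200 mg/kg had 26.5, 32.9, 26.6, 27.4 and 28.6 FPKM. Every treated tumor was below every vehicle tumor. The untreated tumors of that study, at 49.0, 40.3, 41.6, 45.7 and 42.1 FPKM, were also above every treated tumor. The share of all genes with this second pattern was not counted. The mean was 48.2 ± 2.96 FPKM with vehicle (SD, n = 4) and fell by 41.1%, to 28.4 ± 2.66 FPKM at 200 mg/kg (SD, n = 5). The log2 fold change was -0.74 (SE 0.12, 95% interval -0.99 to -0.50, adjusted p = 3.612e-05 by limma). By this p-value TEAD4 ranked 24 of 13036 genes. In this comparison 7.41% of all genes were called, and the treated libraries were all below the vehicle libraries in 3.22% of genes. With untreated in place of vehicle tumors as the reference, the log2 fold change was -0.61 (adjusted p = 0.0003525 by limma).

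At the lower doses TEAD4 lay between these levels. The 4 tumors given 100 mg/kg had 35.0, 39.8, 27.6 and 38.0 FPKM, and the 4 given 30 mg/kg had 42.1, 42.6, 41.1 and 39.5 FPKM. Both groups were below all 4 vehicle tumors, a pattern seen in 2.94% of genes at 100 mg/kg and 2.84% at 30 mg/kg, whereas at 30 mg/kg they overlapped the untreated tumors. The log2 fold change was -0.46 (SE 0.13, adjusted p = 0.06003 by limma) at 100 mg/kg, where 1.12% of genes were called, and -0.22 (SE 0.13, adjusted p = 0.5941) at 30 mg/kg, where 0.0384% were called. Without replicate 4 of 100 mg/kg the first of these passed, with an adjusted p of 0.03986. The shallow library of 100 mg/kg had 36.4 FPKM of TEAD4, inside the range of the others. With all 94 libraries, and so with the 30 mg/kg library at 0 FPKM, the log2 fold change at 30 mg/kg was -1.30 (adjusted p = 0.04097).

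A straight line through the group means, with vehicle as dose 0, had a slope of -0.36 per 100 mg/kg for TEAD4 at 24 h on the log2 scale (SE 0.057, adjusted p = 1.532e-05 by limma). Of all genes, 5.61% were called for this slope, and TEAD4 ranked 17 by p-value. Neighbouring doses were not called apart. The log2 difference was -0.29 (95% interval -0.54 to -0.039, adjusted p = 0.7077) between 200 and 100 mg/kg and -0.24 (95% interval -0.50 to 0.020, adjusted p = 0.9637) between 100 and 30 mg/kg. Those 2 comparisons called 0% (limma, 881 genes with an unadjusted p under 0.05) and 0.00767% of all genes.

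**Figure D2:**
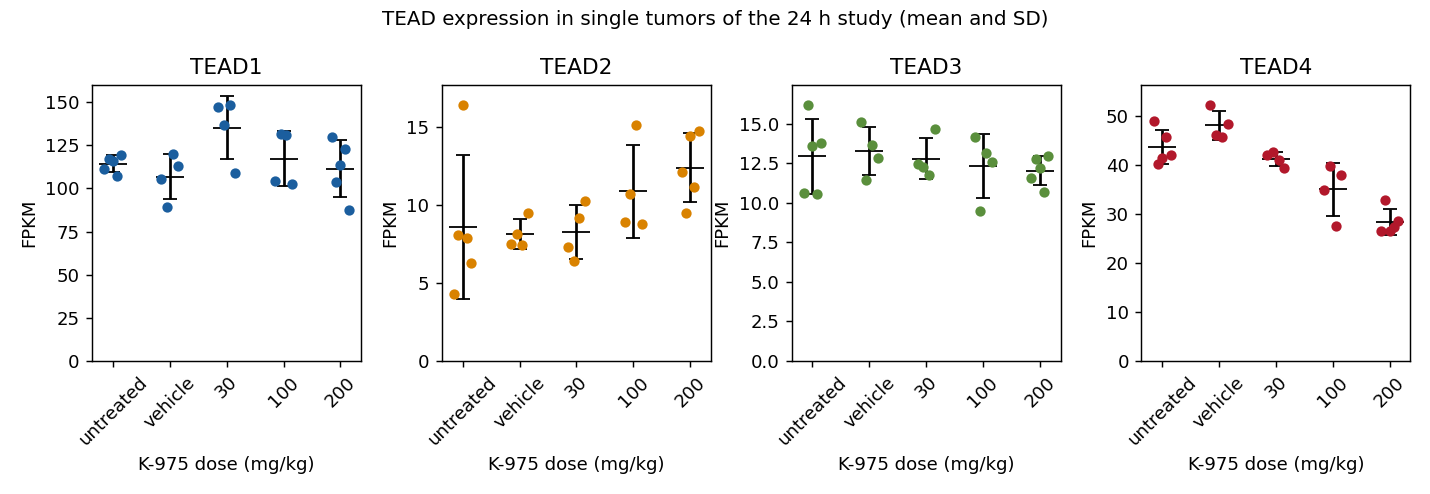
FPKM (y axis starting at 0) of each TEAD gene in single tumors of the 24 h study by treatment (x axis: untreated, vehicle and K-975 dose in mg/kg); points are tumors, horizontal dashes means and whiskers SD. TEAD4 goes from 48.2 FPKM with vehicle through 41.3 and 35.1 to 28.4 FPKM at 200 mg/kg, TEAD2 from 8.13 to 12.4 FPKM, and TEAD1 and TEAD3 overlap across all treatments.

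The calls on TEAD4 depend on leaving the 3 shallow libraries out, although none of them belongs to vehicle or 200 mg/kg at 24 h. With all 94 libraries, whose residual spread enters every comparison, the log2 fold change at 200 mg/kg was again -0.74 but its adjusted p was 1, in a comparison that then called 0 genes in all. The slope was then -0.12 per 100 mg/kg (adjusted p = 0.7308). In a fit of the 9 vehicle and 200 mg/kg libraries alone the adjusted p was 0.006302. Leaving out any of these 9 libraries in turn from the fit of 91 gave log2 fold changes of -0.80 to -0.71 and adjusted p-values of 1.692e-05 to 0.0007033.

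At 1 h TEAD4 in the treated tumors overlapped vehicle. It had 35.7 to 46.4 FPKM with a median of 44.7 in 5 vehicle tumors and 39.6 to 44.0 FPKM with a median of 41.2 in 4 tumors given 200 mg/kg. The log2 fold changes were 0.070, -0.016 and -0.047 at 30, 100 and 200 mg/kg, with a 95% interval of -0.30 to 0.20 at 200 mg/kg. None of the 4 TEAD genes passed at any dose (lowest adjusted p = 0.9532 by limma). The share of all genes called was 0% at 30 mg/kg (571 genes with an unadjusted p under 0.05), 0.00767% at 100 mg/kg and 0% at 200 mg/kg (435 such genes). For the slope at 1 h, which was -0.040 per 100 mg/kg for TEAD4, it was 0% (444 such genes).

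At 3-6 h the 10 vehicle tumors had 31.5 to 48.8 FPKM of TEAD4 with a median of 39.8. The 10 tumors given 200 mg/kg had 26.1 to 43.8 FPKM with a median of 35.1, those given 100 mg/kg had 25.2 to 43.9 FPKM with a median of 34.7, and those given 30 mg/kg had 29.7 to 51.6 FPKM with a median of 39.1. All 3 doses overlapped vehicle. In order of falling dose the log2 fold changes were -0.12, -0.22 and 0.029 (SE 0.083 each), with adjusted p-values of 0.8271, 0.301 and 0.9708 by limma. Of all genes, 0.069%, 0.43% and 0.0153% were called in these 3 comparisons. The TEAD4 slope was -0.083 per 100 mg/kg (adjusted p = 0.5812), and 0.215% of genes were called for it.

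Within the 3-6 h study, the 2 cage groups of a dose differed most in TEAD4 at 100 mg/kg. Cage group 6 had 36.9, 41.6, 39.3, 32.5 and 43.9 FPKM, and cage group 7 had 29.8, 37.2, 25.2, 25.9 and 27.7 FPKM. In cage group 7, 4 of 5 tumors were below all 5 of cage group 6, a log2 difference of -0.41 (SE 0.12, unadjusted p = 0.0008508, adjusted p = 0.2414 by limma). At 200 mg/kg, cage group 4 had 34.9 to 43.8 FPKM with a median of 38.7 and cage group 5 had 26.1 to 35.2 FPKM with a median of 34.6, a log2 difference of -0.26 (SE 0.12, adjusted p = 0.6043). Both cage groups of vehicle had like levels, with a TEAD4 difference of -0.00088 (95% interval -0.24 to 0.23). None of the 16 differences between cage groups passed for any TEAD gene, and 2, those of TEAD4 at 100 and 200 mg/kg, had an unadjusted p under 0.05. The share of all genes called was 0.33% for vehicle, 0% for 30 mg/kg (829 genes with an unadjusted p under 0.05), 0.046% for 100 mg/kg and 0.0153% for 200 mg/kg.

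The effect of 200 mg/kg on TEAD4 was then compared between studies. It was lower at 24 h than at 1 h by -0.70 (SE 0.18, adjusted p = 0.03626 by limma) and lower at 24 h than at 3-6 h by -0.62 (SE 0.15, adjusted p = 0.01579), against 0.583% and 1.72% of all genes called. Between 3-6 h and 1 h the difference was -0.075 (95% interval -0.37 to 0.22, adjusted p = 0.9996), where 0% of genes were called and 604 had an unadjusted p under 0.05. Both calls were fragile. The 2 differences with all 94 libraries were -0.89 (adjusted p = 0.9775 by limma) and -0.62 (adjusted p = 1). Leaving out single libraries took the adjusted p of the first as high as 0.09629, and 12 of 18 such fits missed the threshold. The second was lost in 2 of 29 such fits, without replicate 1 of vehicle or of 200 mg/kg at 24 h, with adjusted p-values of up to 0.053. With untreated tumors as the reference the second was -0.33 (adjusted p = 0.2802). Study, time of collection and cage cannot be told apart in these differences. For TEAD1, TEAD2 and TEAD3 none of the 9 differences between studies passed.

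**Figure D3:**
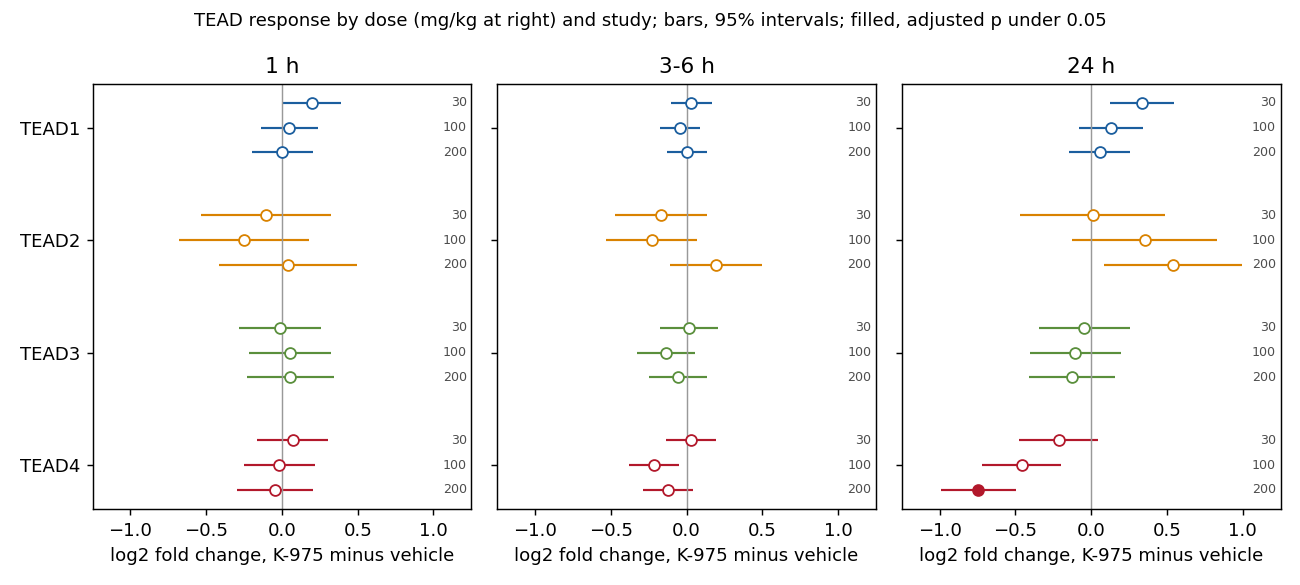
Log2 fold change of each TEAD gene, K-975 minus vehicle (x axis, no unit), at 1 h, 3-6 h and 24 h; the dose in mg/kg is at the right of each row, bars are 95% intervals and filled circles have an adjusted p under 0.05 by limma in 91 libraries. The single filled circle is TEAD4 at 200 mg/kg and 24 h, at -0.74; with all 94 libraries its adjusted p is 1.

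TEAD2, a member best known from early embryos and neural tissue, had higher means than vehicle at 100 and 200 mg/kg at 24 h but missed the threshold. It had 7.48, 8.14, 7.44 and 9.45 FPKM in the vehicle tumors and 12.1, 9.51, 14.4, 11.1 and 14.8 FPKM at 200 mg/kg. All 5 treated tumors were above all 4 vehicle tumors, a pattern shared with 4.23% of genes. The untreated tumors of the study had 4.29, 8.05, 16.4, 7.89 and 6.25 FPKM, so that 4 of them were below all treated tumors and replicate 3 was above them all. The log2 fold change was 0.54 (SE 0.23, 95% interval 0.086 to 1.00, adjusted p = 0.1365 by limma). Tumors given 100 mg/kg had 8.91, 10.7, 15.2 and 8.79 FPKM (log2 fold change 0.35, adjusted p = 0.5333). Those given 30 mg/kg had 6.4 to 10.2 FPKM (log2 fold change 0.011, adjusted p = 0.9975 by limma). The TEAD2 slope was 0.29 per 100 mg/kg (SE 0.10, adjusted p = 0.07939), and it passed without replicate 2 of 200 mg/kg, at 0.0398. With all 94 libraries the slope was 0.46 (adjusted p = 0.3913 by limma). At 1 h and 3-6 h the TEAD2 log2 fold changes ran from -0.25 to 0.20, with adjusted p-values of at least 0.635.

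TEAD1 was not called at any dose. At 24 h it had 106, 89.1, 120 and 113 FPKM with vehicle and 130, 104, 114, 123 and 87.5 FPKM at 200 mg/kg, which overlapped fully. The log2 fold change at 200 mg/kg was 0.057 (95% interval -0.14 to 0.26, adjusted p = 0.7977 by limma). The lowest dose stood furthest from vehicle, with 147, 137, 148 and 109 FPKM and a log2 fold change of 0.34 (SE 0.11, unadjusted p = 0.002242, adjusted p = 0.2436). Over the 3 studies the TEAD1 log2 fold changes ran from -0.042 to 0.34.

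TEAD3, the member noted for its expression in placenta, varied least between groups. Its 15 group means, with cage groups merged, ran from 11.0 to 13.2 FPKM. At 24 h it had 11.4 to 15.1 FPKM with a median of 13.2 with vehicle and 10.7 to 13.0 FPKM with a median of 12.2 at 200 mg/kg. The log2 fold change was -0.13 (95% interval -0.41 to 0.16, adjusted p = 0.6605 by limma). Over the 3 studies the TEAD3 log2 fold changes ran from -0.13 to 0.056.

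The TEAD4 share of the family was lower in every K-975 tumor than in every vehicle tumor at 24 h. With vehicle at 24 h TEAD1 held 60.4 ± 3.03%, TEAD4 27.4 ± 2.44%, TEAD3 7.51 ± 0.586% and TEAD2 4.63 ± 0.663% of the summed FPKM of the 4 genes (SD, n = 4). At 200 mg/kg TEAD4 held 17.4 ± 2.67% and TEAD1 67.6 ± 4.66% (SD, n = 5), while TEAD2 held 7.61 ± 1.79%. The TEAD4 share was already lower at 30 mg/kg, at 21.0 ± 1.44%, and was 20.2 ± 3.76% at 100 mg/kg (SD, n = 4 each). At 30 mg/kg TEAD4 itself was not called, and TEAD1 held 68.2 ± 3.61% with a mean of 135 FPKM, its highest among the doses at 24 h. The highest TEAD4 share was 22.7%, 23.5% and 20.7% at 30, 100 and 200 mg/kg, each below the lowest with vehicle, 24.5%. In the untreated tumors of that study TEAD4 held 22.18% to 27.95%. This range overlapped the shares at 30 and 100 mg/kg but not those at 200 mg/kg. These shares were not tested. The sum of the 4 genes was 176 ± 14.6 FPKM with vehicle (SD, n = 4) and 164 ± 13.8 FPKM at 200 mg/kg (SD, n = 5), a difference within the spread between tumors.

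Markers of the tumor cells were not lower beside TEAD4. At 200 mg/kg and 24 h, 3 of 12 mesothelial markers were called higher, MSLN by 0.40, CALB2 by 0.39 and KRT19 by 0.32 on the log2 scale (adjusted p = 0.04144, 0.01976 and 0.0314 by limma), and none lower. Of all 13036 genes, 496 were called higher, and the median log2 fold change was 0.27 over the 12 markers and 0.037 over all genes. Each of the 3 had an adjusted p of 1 with all 94 libraries. The summed level of the mesothelial markers was 3756 to 5169 FPKM in the treated tumors and 3329 to 3452 FPKM with vehicle, and the sums were not tested. Among single genes, 4.23% had all treated libraries above all vehicle libraries. The summed level of the 6 human immune markers was 125 to 205 FPKM against 144 to 225 FPKM, that of the 4 endothelial markers 26.8 to 92.2 FPKM against 31.0 to 67.8 FPKM, that of the 4 fibroblast or pericyte markers 23.3 to 41.2 FPKM against 30.4 to 38.3 FPKM and that of 3 keratinocyte markers 1.53 to 4.20 FPKM against 2.04 to 7.18 FPKM. Of these markers 3 immune, 3 endothelial, 4 fibroblast or pericyte and 1 keratinocyte gene were tested, and none was called (limma, 0 with an unadjusted p under 0.05). For the mesothelial sum, the untreated tumors of the 24 h study had 2891 to 4390 FPKM, which overlapped both treated and vehicle tumors. Some genes in that sum varied widely over the 91 libraries, ITLN1 from 3.0 to 1773 FPKM and KRT5 from 461 to 1548 FPKM. The part of the mesothelial markers in the result was not tested.

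No TEAD gene was called between vehicle and untreated tumors. The 12 log2 differences between vehicle and untreated tumors ran from -0.18 to 0.17, and none had an unadjusted p under 0.05. In each of the 3 studies 0% of all genes were called by limma, while an unadjusted p under 0.05 was found for 616 genes at 1 h, 629 at 3-6 h and 547 at 24 h. The widest 95% interval was that of TEAD2 at 24 h, from -0.41 to 0.50.

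TEAD1, in contrast, differed between the untreated tumors of the studies. The untreated tumors of the 3-6 h study had 139, 142, 171, 139 and 149 FPKM. Those of the 1 h study had 109, 112, 103, 104 and 99.2 FPKM, and those of the 24 h study 111, 117, 116, 107 and 120 FPKM. Every tumor of the 3-6 h study was above every tumor of the others. The means were 148 ± 13.4, 105 ± 5.05 and 114 ± 4.88 FPKM (SD, n = 5 each). From 1 h to 3-6 h the log2 difference was 0.48 (SE 0.095, adjusted p = 0.01893 by limma), the first of 13036 genes by p-value in a comparison that called 0.0997% of them. Untreated tumors at 24 h were lower than at 3-6 h by -0.37 (SE 0.095, adjusted p = 0.01423), where 4.36% of genes were called. Libraries without overlap in these directions were found for 1.66% and 2.62% of genes. The 24 h and 1 h tumors differed by 0.11 (95% interval -0.075 to 0.30, adjusted p = 0.7199), where 0.00767% of genes were called.

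The size of both TEAD1 differences held when single tumors were left out, at 0.43 to 0.50 and -0.39 to -0.31, but the calls did not. Without replicate 3 of the 3-6 h study, the tumor at 171 FPKM, the adjusted p was 0.08373 for the first and 0.0772 for the second. The call from 1 h to 3-6 h was also lost without replicate 4 of the 1 h study, with an adjusted p of 0.1096. With all 94 libraries the log2 differences were again 0.48 and -0.37, with an adjusted p of 1 for each. The vehicle tumors went the same way, with 106 to 159 FPKM and a median of 134 in 10 tumors at 3-6 h, against 104 to 137 FPKM with a median of 110 in 5 tumors at 1 h and 89.1 to 120 FPKM with a median of 109 in 4 tumors at 24 h. These groups overlapped. TEAD2, TEAD3 and TEAD4 were not called in any of these comparisons, with log2 differences of -0.15 to 0.19.

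Summed levels of markers in the untreated tumors were set side by side between the studies, without a test of the sums. The mesothelial sums overlapped, with 3939 to 5645 FPKM at 3-6 h, 3200 to 4263 FPKM at 1 h and 2891 to 4390 FPKM at 24 h. The summed endothelial markers were 73.5 to 106 FPKM at 3-6 h, against 28.7 to 60.8 FPKM at 1 h and 35.1 to 64.1 FPKM at 24 h, nearly all of it from KDR. The summed immune markers were 53.3 to 132 FPKM at 3-6 h, against 113 to 186 FPKM and 141 to 266 FPKM, nearly all of it from CD68. No marker on these 3 lists was called at 1 h against 3-6 h or 24 h. Those comparisons called 0.0997% and 0.00767% of all genes. At 24 h against 3-6 h, 3 of 12 mesothelial markers were called lower. Of 3 endothelial and 3 immune markers tested, KDR was called lower and CD68 higher, where 4.36% of all genes were called. The part of the markers in the TEAD1 difference was not tested, and study and time of collection cannot be told apart.

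No partner of the TEAD proteins was called. Of the 6 cofactors on the list, 4 passed the filter, among them YAP1 and WWTR1, and none was called at any dose in any study, where 0% to 7.41% of all genes were called. At 200 mg/kg, 2 of the 4 had an unadjusted p under 0.05 at 3-6 h and 0 at 24 h. YAP1, the main co-activator, had 65.9 to 81.6 FPKM with vehicle and 60.5 to 81.4 FPKM at 200 mg/kg and 24 h (log2 fold change -0.045, SE 0.090). WWTR1, its paralog, had 9.46 to 20.2 FPKM and 11.1 to 20.1 FPKM (log2 fold change 0.0096, SE 0.22). At 200 mg/kg and 3-6 h the log2 fold change was 0.40 for WWTR1 (SE 0.15, adjusted p = 0.4047 by limma) and -0.020 for YAP1 (SE 0.060).

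Of the Hippo core and its regulators, 17 of 18 were tested, and at 200 mg/kg and 24 h 2 were called lower and none higher, with a median log2 fold change of -0.050. That number of 17 is near the 7.41% called among all genes. They were WWC1 (KIBRA), a scaffold that promotes LATS activation, by -0.64 (SE 0.075, adjusted p = 1.13e-08 by limma) and the kinase STK4 by -0.42 (SE 0.14, adjusted p = 0.04968). WWC1 was also lower at 100 mg/kg by -0.47 (adjusted p = 0.0001767). With vehicle it had 438 to 470 FPKM, at 30 mg/kg 398 to 441 FPKM, at 100 mg/kg 290 to 366 FPKM and at 200 mg/kg 253 to 336 FPKM. At 3-6 h the called members were the angiomotin-like gene AMOTL2 and the LIM protein gene AJUBA, lower at both 100 and 200 mg/kg by -0.62 and -0.53 for AMOTL2 and by -0.36 and -0.37 for AJUBA, where 0.43% and 0.069% of all genes were called. None of these calls of Hippo genes was made with all 94 libraries (adjusted p of 0.8545 for WWC1 at 100 mg/kg and of 1 for the others).

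Of the 22 targets of YAP1 and TEAD on the list, 8 were called lower and none higher at 200 mg/kg and 24 h, with a median log2 fold change of -0.46. Of all 13036 genes, 470 were called lower in that comparison, and the median was 0.037. CCN1 and CCN2, secreted matricellular proteins that are the usual readout of the pathway, changed by -1.26 (SE 0.20) and -1.44 (SE 0.21), with adjusted p-values of 1.228e-05 and 2.11e-06. The others were IGFBP3, F3, NT5E, GADD45A, AXL and CRIM1, at -1.80 to -0.28. At 3-6 h CCN1, CCN2 and AMOTL2 were called lower at 100 and 200 mg/kg, where TEAD4 was not. With all 94 libraries no gene of the Hippo, target or mesothelial marker lists was called at these doses and times, and 6 targets had an unadjusted p under 0.05 at 200 mg/kg and 24 h, where CCN1 and CCN2 had adjusted p-values of 0.1533 and 0.1466. At 1 h no target was called in the 91 libraries (limma, 1 with an unadjusted p under 0.05 at each of the 2 lower doses and 0 at 200 mg/kg).

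Over the 91 libraries, the gene whose log2(FPKM + 1) followed TEAD4 most closely was WWC1, with a Pearson's r of 0.77. Next came CSE1L, a nuclear export receptor, the spermidine synthase gene SRM, ATAD3A and PPME1, at 0.73 to 0.74. CCN1 and CCN2 stood at 0.70 and 0.66. Within the 24 h study (22 libraries) WWC1, CCN1 and CCN2 stood at 0.91, 0.89 and 0.92, and within the 1 h study (24 libraries) at 0.43, 0.54 and 0.25. At 3-6 h (45 libraries) they stood at 0.73, 0.56 and 0.50. The lowest were CALHM2, ADAMTS10 and VMP1, at -0.71 to -0.66. These values describe the libraries, which share treatments and studies, and no test was made.

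**Figure D4:**
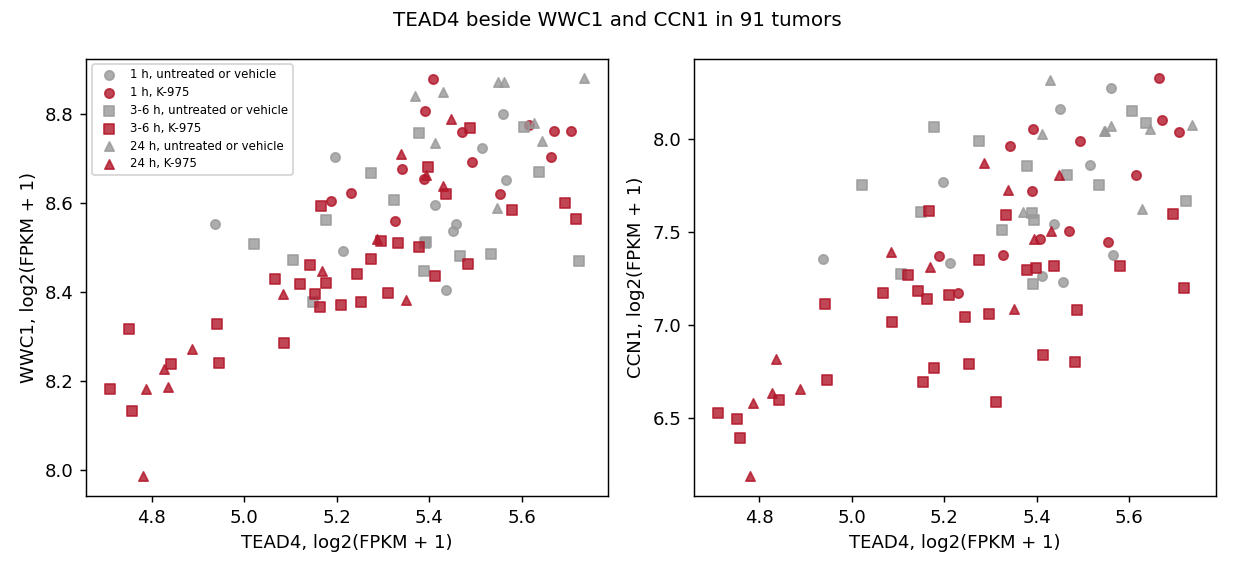
WWC1 (left) and CCN1 (right) against TEAD4 in the 91 tumors, all as log2(FPKM + 1); symbols mark the study and red marks K-975. The tumors lowest in TEAD4 are K-975 tumors of the 24 h and 3-6 h studies and are also low in WWC1 and CCN1 (r of 0.77 and 0.70 over 91 libraries).

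The other members did not follow TEAD4. Its r was 0.016 with TEAD1, -0.37 with TEAD2 and 0.25 with TEAD3. TEAD1 was most like KRT4, OLFML1, KCNJ4, ANXA2 and ARHGEF26, at 0.59 to 0.62, and least like CD59, MT2A and TMEM132A, at -0.66 to -0.60. TEAD2 was most like APBB2, GRN, ABCC3, TSC22D4 and EPHB2, at 0.45 to 0.50, and least like DIAPH3, NUDC and MYBL1, at -0.50 to -0.47. TEAD3 was most like NDEL1, PI4K2A, YRDC, NUP153 and AP2A1, at only 0.39 to 0.43, and least like ENPP4, COMTD1 and TAF1, at -0.46 to -0.42. With CCN1 the r was -0.21 for TEAD1, -0.31 for TEAD2 and 0.27 for TEAD3.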

How the data were processed

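RNA from 94 tumors was made into KAPA HyperPrep libraries, enriched with KAPA HyperCap probes and read from both ends. The authors deposited FPKM values, 1 column per library. The submitters' processing notes name STAR and GRCh38; the quantifier, the annotation release and the handling of mouse reads are not given in the sources used here. FPKM hold no read counts, so depth is unknown and no counting interval could be given. Of 20555 entries, the highest of each of 20239 gene IDs was kept (284 IDs had more than 1), and 32 blank cells were read as 0. Levels are taken per transcript length as deposited, and their fold changes on the log2(FPKM + 1) scale understate changes of low genes.

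Groups came from the labels (19, with cage groups apart), and replicates were numbered within groups. No animal gave more than 1 sample by the labels, but p-values measure only the spread between these tumors. Tests used limma 3.58.1 (lmFit, eBayes with trend and robust) in R 4.3.3 on log2(FPKM + 1), fitting a mean for each group, and kept genes that reached 1 FPKM in 4 or more libraries. Adjusted p-values are Benjamini-Hochberg values over the 13036 genes of a comparison, with a threshold of 0.05. The 3 libraries with fewer than 10000 genes at an FPKM of at least 1 were left out, a limit taken from earlier results of these data. The fit was tested on simulated data. Alternatives were all 94 libraries, a pseudocount of 0.1, no filter, quantile normalization, only the groups compared, untreated tumors as the reference, summed entries, and leaving out each replicate.

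The 4 genes, the lists and the tests were chosen with earlier results of these data known. Named by rule were the TEAD genes, YAP1, WWTR1, CCN1 and CCN2, list members past the threshold, and per TEAD gene the 5 highest and 3 lowest Pearson's r. WWC1 levels and correlations within studies, the marker levels and the lists with all 94 libraries were added after values were seen. Sequences and loci are from GENCODE 29, with the pocket cysteine found by the protein motif around it.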

Additional observations from a re-analysis of the deposited data

Results flagged for a closer look

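The 4 TEAD genes in the 19 groups of 4 or 5 libraries made 76 sets of values, and the genes of a group share its tumors. In 3 of the sets a tumor lay far from the rest, and chance alone gives such a tumor in about 1 of 20 sets. TEAD1 at 200 mg/kg and 1 h was 128.5 FPKM in replicate 3, above the others at 110.1 to 112.5. TEAD2 in vehicle cage group 3 at 3-6 h was 23.47 FPKM in replicate 5, above the others at 6.352 to 9.188; this is the highest TEAD2 value of the 91 libraries. TEAD4 at 200 mg/kg in cage group 5 at 3-6 h was 26.07 FPKM in replicate 4, below the others at 32.97 to 35.19.

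The effect of 200 mg/kg on TEAD4 differed between studies by a test of the difference itself in limma. It was -0.70 lower on the log2 scale at 24 h than at 1 h (adjusted p = 0.03626) and -0.62 lower at 24 h than at 3-6 h (adjusted p = 0.01579). Of all genes, 0.583% and 1.72% were called in these comparisons. Both calls were fragile, since neither was made with all 94 libraries. Leaving out single libraries lost the first in 12 of 18 fits and the second in 2 of 29.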

How the results depend on the processing

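With all 94 libraries, every one of the 6 TEAD calls of the 91 libraries was lost: the count of TEAD genes called went from 1 to 0 for 200 mg/kg at 24 h, for the slope at 24 h, for the effect of 200 mg/kg at 24 h against 1 h and against 3-6 h, and for untreated tumors at 24 h and at 1 h against 3-6 h. It went from 0 to 1 for 30 mg/kg at 24 h (TEAD4, -1.30) and from 0 to 2 for 100 against 30 mg/kg at 24 h (TEAD1 and TEAD2). Replicate 1 of 30 mg/kg, with every TEAD gene at 0 FPKM, is in those groups. Directions also turned with all 94 libraries: at 200 mg/kg and 1 h TEAD2 was -0.59, TEAD3 -0.10 and TEAD4 0.15, at 30 mg/kg and 24 h TEAD1 was -1.08 and TEAD2 -0.63, the TEAD4 slope at 1 h was 0.057, and TEAD4 at 100 against 30 mg/kg was 0.85. A pseudocount of 0.1, no filter, only the groups compared and summed entries changed no count of calls and no direction. Quantile normalization changed no count and turned TEAD1 at 200 mg/kg and 1 h (-0.0023) and TEAD2 at 30 mg/kg and 24 h (-0.034). With untreated tumors as the reference the count for 24 h against 3-6 h went to 0, and directions of uncalled values turned: at 1 h TEAD3 at 30 mg/kg (0.017), TEAD4 at 100 mg/kg (0.14) and TEAD2 (-0.14) and TEAD4 (0.11) at 200 mg/kg; at 3-6 h TEAD1 (-0.095), TEAD3 (-0.013) and TEAD4 (-0.12) at 30 mg/kg and TEAD1 at 200 mg/kg (-0.12); at 24 h TEAD1 at 200 mg/kg (-0.047); and the TEAD4 slope at 1 h (0.016). The cause was not tested.

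Leaving out single replicates kept TEAD4 at 200 mg/kg and its slope at 24 h past the threshold throughout (-0.80 to -0.71 and -0.38 to -0.34). The count of calls ran from 1 to 2 for that slope, from 0 to 1 for 100 mg/kg at 24 h, and from 0 to 1 for the effect on TEAD4 at 24 h against 1 h and 3-6 h (-0.75 to -0.63 and -0.68 to -0.58) and for TEAD1 in untreated tumors at 3-6 h against 1 h (0.43 to 0.50) and 24 h (-0.39 to -0.31). Signs turned in uncalled values near 0. For TEAD1 these were -0.050 to 0.065 at 200 mg/kg and 1 h, -0.027 to 0.14 at 200 mg/kg and 24 h, -0.031 to 0.041 at 200 mg/kg and 3-6 h and -0.0011 to 0.071 at 30 mg/kg and 3-6 h. For TEAD2 they were -0.17 to 0.18 at 200 mg/kg and 1 h, -0.18 to 0.018 at 30 mg/kg and 1 h and -0.087 to 0.11 at 30 mg/kg and 24 h. For TEAD3 they were -0.036 to 0.18, -0.032 to 0.15 and -0.10 to 0.071 at 100, 200 and 30 mg/kg and 1 h, -0.17 to 0.0091 and -0.11 to 0.015 at 100 and 30 mg/kg and 24 h, and -0.048 to 0.057 at 30 mg/kg and 3-6 h. For TEAD4 they were -0.081 to 0.046 at 100 mg/kg and 1 h and -0.018 to 0.079 at 30 mg/kg and 3-6 h. No paired analysis was possible because the labels give groups no shared replicate numbers. Without counts, what depth limits could not be given beyond the 3 shallow libraries.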
